A study of Mus musculus with 9 samples.

Results

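The histocompatibility and antigen processing genes described here are the 42 symbols of the count tables that begin with H2-, the prefix of the mouse major histocompatibility complex, and 12 genes named singly: B2m, Cd74, Ciita, Tap1, Tap2, Tapbp, Psmb8, Psmb9, Psmb10, Nlrc5, Ctss and Cd1d1. They make up 54 of the 22609 genes counted. They were picked by symbol and not by their values, although earlier results of these data were known when they were chosen. RNA was sequenced from hind paw skin punches, from L3 to L5 dorsal root ganglia (DRG), which hold the cell bodies of sensory neurons, and from lumbar spinal cord, with 3 libraries of each tissue. All 9 libraries came from male C57 mice aged 8 to 12 weeks that had received the chemotherapy drug paclitaxel in 2 intraperitoneal injections of 2 mg/kg. They had also been given a blocker of LTβR, the lymphotoxin-beta receptor, both under the paw skin and into the spinal fluid, with 15 µg per site. Tissue was taken 6 days after the last paclitaxel dose. The titles place the antagonist on days 1 and 4, whereas the series text places it between the paclitaxel injections and 1 day after them. Control animals given IgG are not analysed here, and the comparisons say nothing of either agent, since every tissue had received both. Whether each library stands for a mouse of its own is not stated, and p-values here measure only the spread between samples, which may be technical.

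Class I molecules, a heavy chain paired with beta-2 microglobulin, show peptides from inside the cell to CD8 T cells and natural killer cells and are made by nearly all nucleated cells. Class II molecules show peptides from the lysosome to CD4 T cells and are made mainly by dendritic cells, Langerhans cells of the epidermis, B cells and activated macrophages, with little in resting microglia. Interferon gamma raises both pathways through the transactivators CIITA, for class II, and NLRC5, for class I.

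The libraries held 15537545 to 23229724 reads in genes. Levels are CPM, the reads of a gene scaled to the total of its library and adjusted by the trimmed mean of M values (TMM). A gene was called where edgeR's quasi-likelihood test gave an adjusted p under 0.05. The tissue labels matched their markers: all 8 keratinocyte genes were called higher in paw against either other tissue, all 8 sensory neuron genes were called higher in DRG than in spinal cord, and 7 of 8 central glial and spinal neuron genes were called lower in DRG than in spinal cord. Paw also held skeletal muscle transcripts, at a summed 13312 to 17005 CPM over 6 genes. Spinal cord replicate 3 stood apart from the other spinal cord libraries, as its gene counts gave chi-square values per degree of freedom of 28.4 and 38.4 against them, while those gave 7.55 against each other. Its summed fibroblast and meningeal markers reached 1211 CPM, against 438 and 531 CPM in the other spinal cord libraries. Paw replicate 1 gave 23.2 and 31.5 against the other paw libraries, which gave 8.59 against each other, and DRG replicate 2 gave 35.2 and 26.6, against 13.4 for the other DRG pair. The muscle sum was 606 and 943 CPM in DRG replicates 1 and 2 and 31.6 CPM in replicate 3. Values without a library are given where leaving it out ended or made a call or moved a called fold change by over 1.5 times.

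Of the 54 genes, 46 had at least 1 read and 35 passed the low-count filter. H2-M10.1, H2-M10.3, H2-M10.4, H2-M10.5, H2-M10.6, H2-Q7, H2-Q9 and H2-T9 had 0 reads in all 9 libraries. Among the 35 tested, paw against DRG gave 13 genes called higher and 12 lower, 71.4% in all, where 80.5% of the 16091 genes tested were called, 39.7% higher and 40.8% lower. Paw against spinal cord gave 18 higher and 7 lower, again 71.4%, where 81.6% of all genes were called, 39.9% higher and 41.7% lower. DRG against spinal cord gave 19 higher and 6 lower, also 71.4%, where 59.6% of all genes were called, 29.0% higher and 30.6% lower. The shares called were thus below the background in the comparisons with paw and above it in DRG against spinal cord. The libraries of the tissues did not overlap for 26, 27 and 26 of the 35 genes in these comparisons, where 83.4%, 83.5% and 64.5% of all genes did not. The median log2 fold change of the 35 was 0.38 in paw against DRG, 0.45 in paw against spinal cord and 0.73 in DRG against spinal cord, beside -0.019, -0.025 and -0.023 over all genes tested. A gene could pass the filter through 1 high tissue alone, so these shares describe the tested genes only, and the 3 comparisons share libraries. The map of all fold changes by role shows the class II chains, classical class I chains and regulators to the right of 0 in every comparison, and the DM chaperones, cathepsin S and the class Ib chains spread over both sides.

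**Figure D1:**
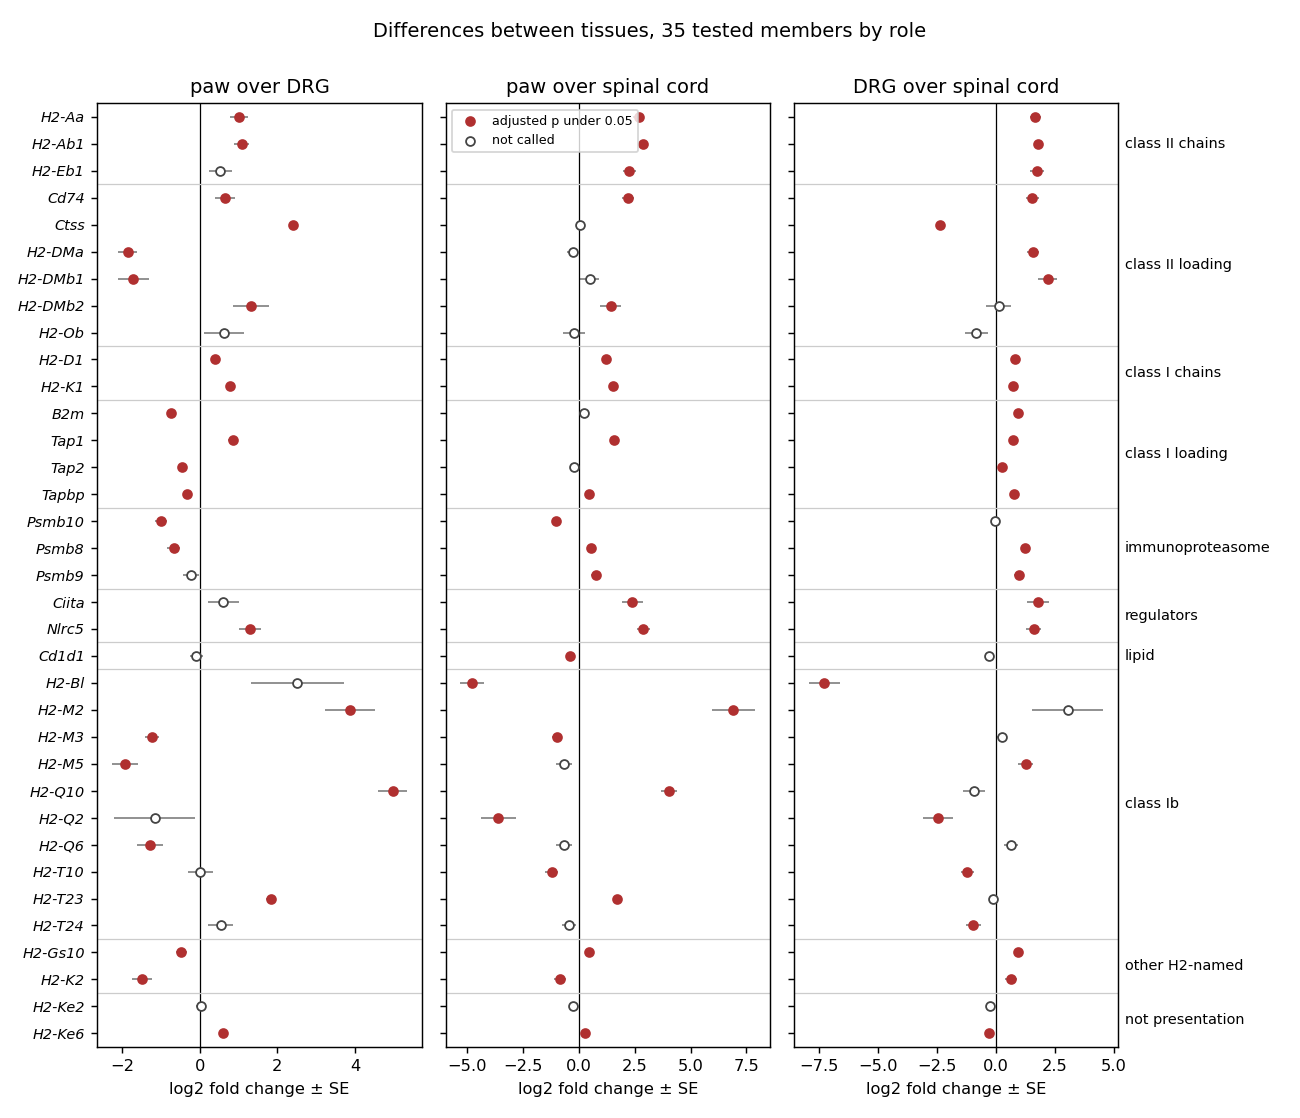
Log2 fold changes with their standard errors (horizontal axis, log2 scale) of the 35 tested genes, grouped by role (rows), for paw over DRG, paw over spinal cord and DRG over spinal cord. Filled points have an edgeR adjusted p under 0.05, of which there are 25 in each panel; H2-Bl and H2-M2 rest on few reads in at least 1 tissue.

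The class II chains, which form the peptide-binding heterodimers, were highest in paw, lower in DRG and lowest in spinal cord. Summed over H2-Aa, H2-Ab1 and H2-Eb1 they reached 331 ± 23.8 CPM in paw, 178 ± 9.65 in DRG and 54.1 ± 24.4 CPM in spinal cord (SD, n = 3 each). All 3 tested chains were called higher in paw and in DRG against spinal cord, and 2 of 3 in paw against DRG. Over all genes tested, 39.9%, 29.0% and 39.7% were called higher in those comparisons. H2-Aa, the A alpha chain, had 144, 146 and 129 CPM in paw, 72.8, 70.0 and 64.7 CPM in DRG, and 17.9, 14.8 and 32.6 CPM in spinal cord. The tissues did not overlap, and within spinal cord replicate 3 was the highest. The log2 fold change of H2-Aa was 1.01 ± 0.23 in paw over DRG (SE; adjusted p = 0.00249), 2.69 ± 0.25 in paw over spinal cord (adjusted p = 3.32e-06) and 1.67 ± 0.24 in DRG over spinal cord (adjusted p = 0.000215). H2-Ab1, its A beta partner, had 105, 113 and 96.8 CPM in paw, 51.9, 47.3 and 49.7 CPM in DRG, and 11.9, 10.8 and 20.3 CPM in spinal cord, again without overlap. It differed by 1.08 ± 0.19 in paw over DRG (adjusted p = 0.000283), 2.88 ± 0.20 in paw over spinal cord (adjusted p = 1.48e-07) and 1.80 ± 0.20 in DRG over spinal cord (adjusted p = 1.79e-05). H2-Eb1, the E beta chain, had 84.2, 94.7 and 80.1 CPM in paw, 64.8, 57.1 and 57.0 CPM in DRG, and 12.1, 12.7 and 29.3 CPM in spinal cord. Its difference of 0.53 ± 0.29 in paw over DRG was not called (adjusted p = 0.114) although the libraries did not overlap. Without spinal cord replicate 3, which enters the shared estimate of spread, it was 0.56 with an adjusted p of 0.000241. H2-Eb1 was 2.27 ± 0.31 higher on the log2 scale in paw over spinal cord (adjusted p = 8.73e-05) and 1.73 ± 0.30 higher in DRG over spinal cord (adjusted p = 0.000938). The E alpha gene is not transcribed in the H2b haplotype of C57BL strains, and its entry H2-Ea-ps had 1 read in all, in spinal cord. H2-Eb2, a second E beta gene, had 4, 4 and 7 reads in paw, DRG and spinal cord, and neither was tested.

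**Figure D2:**
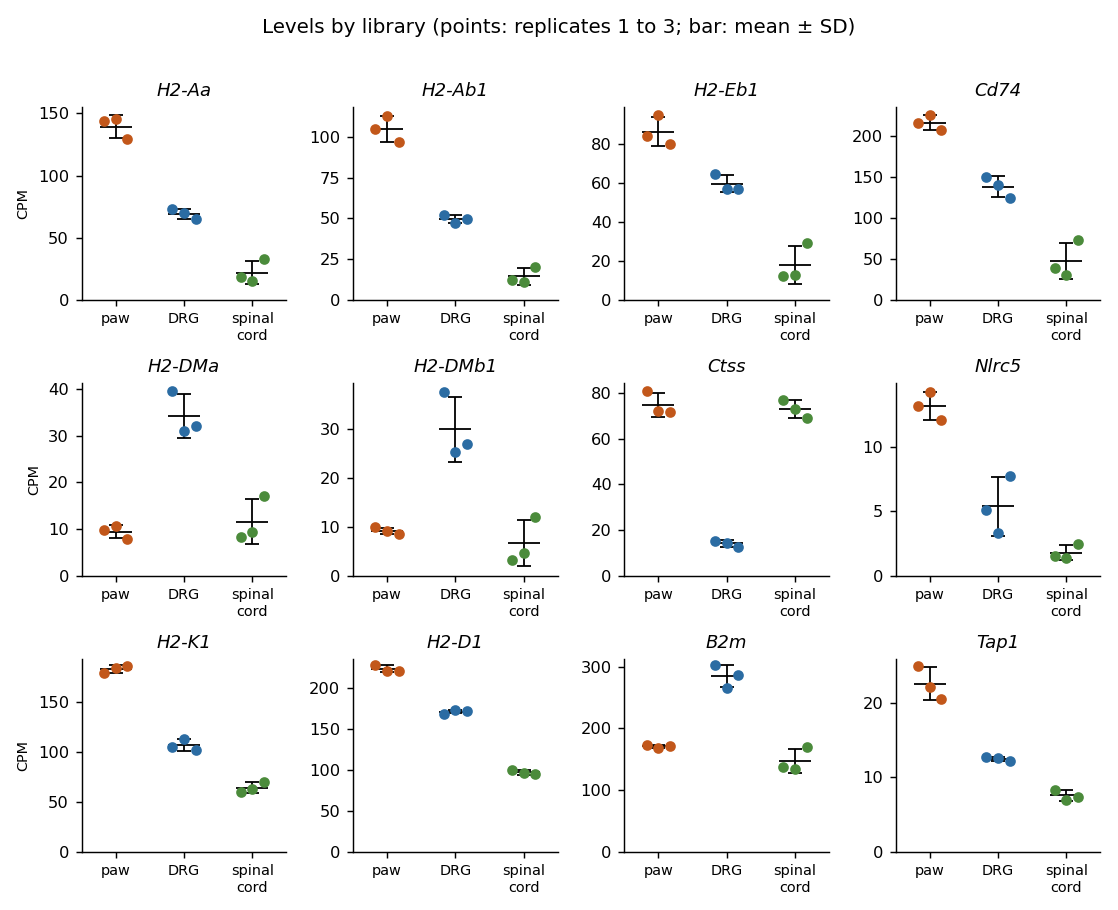
CPM (linear axes from 0) of 12 genes in each of the 9 libraries, with paw, DRG and spinal cord from left to right. Points are replicates 1 to 3 and bars the mean ± SD; the 3 class II chains and Cd74 step down from paw to spinal cord, H2-DMa, H2-DMb1 and B2m peak in DRG, and Ctss is at 12.6 to 15.3 CPM in DRG against 69.1 to 80.9 CPM in the other tissues.

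Class II promoters are known for a paired X box, bound by the RFX complex, and Y box, the CCAAT element bound by NF-Y, to which CIITA is recruited. The 250 bases upstream of the annotated start are shown 5′ to 3′ for H2-Eb1 (chr17:34305617-34305866, plus strand), H2-DMb1 (chr17:34152941-34153190, plus strand) and H2-Aa (chr17:34287824-34288073, minus strand), from RefSeq on GRCm38.p6. They are shown because H2-Eb1 and H2-Aa were high in paw and lowest in spinal cord, whereas H2-DMb1 was highest in DRG. Capitals mark matches on either strand to ACNGATG, a core of the X box, and to CCAAT, the Y box core, which do not overlap each other.
H2-Eb1: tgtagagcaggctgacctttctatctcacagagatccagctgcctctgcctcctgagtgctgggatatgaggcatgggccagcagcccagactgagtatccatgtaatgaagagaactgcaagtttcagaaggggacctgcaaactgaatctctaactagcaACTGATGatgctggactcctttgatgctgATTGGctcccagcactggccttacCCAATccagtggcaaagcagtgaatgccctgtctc
H2-DMb1: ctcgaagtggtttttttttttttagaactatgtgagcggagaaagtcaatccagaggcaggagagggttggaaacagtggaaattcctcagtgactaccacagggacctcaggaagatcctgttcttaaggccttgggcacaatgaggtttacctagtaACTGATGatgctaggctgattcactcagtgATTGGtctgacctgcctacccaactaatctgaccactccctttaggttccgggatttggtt
H2-Aa: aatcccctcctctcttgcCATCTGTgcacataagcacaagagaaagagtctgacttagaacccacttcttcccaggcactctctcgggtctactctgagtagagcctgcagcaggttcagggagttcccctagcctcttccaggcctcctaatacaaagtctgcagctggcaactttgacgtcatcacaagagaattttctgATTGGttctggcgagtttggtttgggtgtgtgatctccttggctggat
In H2-Eb1 the X core began 88 bases and the reversed Y core 59 bases before the start, with a further CCAAT at 35 bases. H2-DMb1 held the same order at 91 and 61 bases. H2-Aa held a reversed Y core at 48 bases, while its only match to ACNGATG lay far from it, at 232 bases on the opposite strand. A match or its lack describes these letters only and does not show whether H2-Aa holds an X box nearer the Y core. CCAAT was found in 33.8% and ACNGATG in 8.31% of all 32851 promoters of this length, and in 32 and 20 of the 39 genes of the module that have an entry. Here and for GGGATTC below, the percentages are of promoter entries, while a gene was counted if any of its entries matched.

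The invariant chain Cd74, which escorts class II chains to the lysosome, followed the chains. It had 216, 225 and 208 CPM in paw, 149.9, 140.2 and 124 CPM in DRG, and 39.1, 30.7 and 72.6 CPM in spinal cord. The tissues did not overlap and spinal cord replicate 3 was again the highest of its tissue. Cd74 was 2.19 ± 0.27 higher on the log2 scale in paw over spinal cord (adjusted p = 4.75e-05) and 1.54 ± 0.27 higher in DRG over spinal cord (adjusted p = 0.000901). Its difference in paw over DRG, 0.65 ± 0.26, was called by a narrow margin (adjusted p = 0.0443). Leaving out any single paw or DRG library gave adjusted p-values of 0.0695 to 0.117. Leaving out spinal cord replicate 3 gave 0.67 with an adjusted p of 0.000127. Relative to H2-Aa within a library, Cd74 stood at a log2 ratio of 0.63 ± 0.05 in paw, 0.99 ± 0.05 in DRG and 1.11 ± 0.05 in spinal cord (SD, n = 3 each), values chosen after they were seen and not tested.

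The DM chaperones, which exchange the invariant chain remnant for antigenic peptide, were highest in DRG instead of paw. H2-DMa had 9.88, 10.55 and 7.89 CPM in paw, 39.6, 31.0 and 32.0 CPM in DRG, and 8.20, 9.33 and 17.05 CPM in spinal cord. H2-DMb1 had 9.88, 9.13 and 8.48 CPM in paw, 37.7, 25.4 and 27.0 CPM in DRG, and 3.20, 4.71 and 12.0 CPM in spinal cord. For both genes every DRG library lay above every paw and every spinal cord library, and paw and spinal cord overlapped. In paw over DRG the log2 fold change was -1.86 ± 0.25 for H2-DMa (adjusted p = 4.29e-05) and -1.71 ± 0.40 for H2-DMb1 (adjusted p = 0.00352). In DRG over spinal cord it was 1.58 ± 0.24 for H2-DMa (adjusted p = 0.000259) and 2.20 ± 0.41 for H2-DMb1 (adjusted p = 0.00155). Paw over spinal cord was not called for H2-DMa, at -0.28 ± 0.25 (adjusted p = 0.324), or for H2-DMb1, at 0.48 ± 0.42 (adjusted p = 0.311). Spinal cord replicate 3 bears on this: without it H2-DMb1 was 1.24 higher in paw over spinal cord (adjusted p = 0.000515) and 2.93 higher in DRG over spinal cord, and H2-DMa stood at 0.14 in paw over spinal cord (adjusted p = 0.46) and at 1.97 in DRG over spinal cord. Ratios within a library, which need no library scaling, set paw apart. The log2 ratio H2-DMa/H2-Aa was -3.89 ± 0.13 in paw, -1.02 ± 0.15 in DRG and -0.91 ± 0.23 in spinal cord, and H2-DMb1/H2-Ab1 was -3.51 ± 0.11 in paw, -0.75 ± 0.25 in DRG and -1.28 ± 0.57 in spinal cord (SD, n = 3 each). All paw libraries lay below all others for both ratios, while DRG and spinal cord overlapped; the ratios were picked after the values were seen and were not tested. H2-DMb1 shares 27.2% of its 50-base windows with other genes' transcripts, all of them with H2-DMb2, whereas H2-DMa and H2-Aa share none.

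H2-DMb2, the second DM beta gene, was low, with 16, 13 and 13 reads in paw, 6, 6 and 9 in DRG and 10, 2 and 6 in spinal cord. It was called higher in paw over DRG, at 1.32 ± 0.46 (adjusted p = 0.0195), and in paw over spinal cord, at 1.43 ± 0.47 (adjusted p = 0.0148). The first of these calls was lost without DRG replicate 1 (1.18, adjusted p = 0.0699), without DRG replicate 2 (1.26, adjusted p = 0.0543) and without paw replicate 1 (1.21, adjusted p = 0.0628). H2-Ob, a chain of the DM inhibitor H2-O, had 38 reads in paw, 31 in DRG and 51 in spinal cord and was called in no comparison, although without spinal cord replicate 2 its value of -1.25 in DRG over spinal cord was called (adjusted p = 0.0253). Its partner H2-Oa had 5, 9 and 22 reads in those tissues and was not tested.

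Cathepsin S, encoded by Ctss, makes the last cuts in the invariant chain in many antigen presenting cells and is also a microglial protease. Ctss had 80.9, 72.3 and 71.6 CPM in paw, 15.3, 14.4 and 12.6 CPM in DRG, and 76.8, 73.2 and 69.1 CPM in spinal cord. Every DRG library was far below the others, and paw and spinal cord overlapped. The log2 fold change was 2.41 ± 0.11 in paw over DRG (adjusted p = 1.27e-09), -2.37 ± 0.11 in DRG over spinal cord (adjusted p = 6.83e-09) and 0.04 ± 0.10 in paw over spinal cord (adjusted p = 0.732). Relative to Cd74, its substrate, Ctss stood at a log2 ratio of -1.53 ± 0.11 in paw, -3.29 ± 0.01 in DRG and 0.72 ± 0.70 in spinal cord (SD, n = 3 each), without overlap between tissues. That ratio was also chosen after its values were seen.

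**Figure D3:**
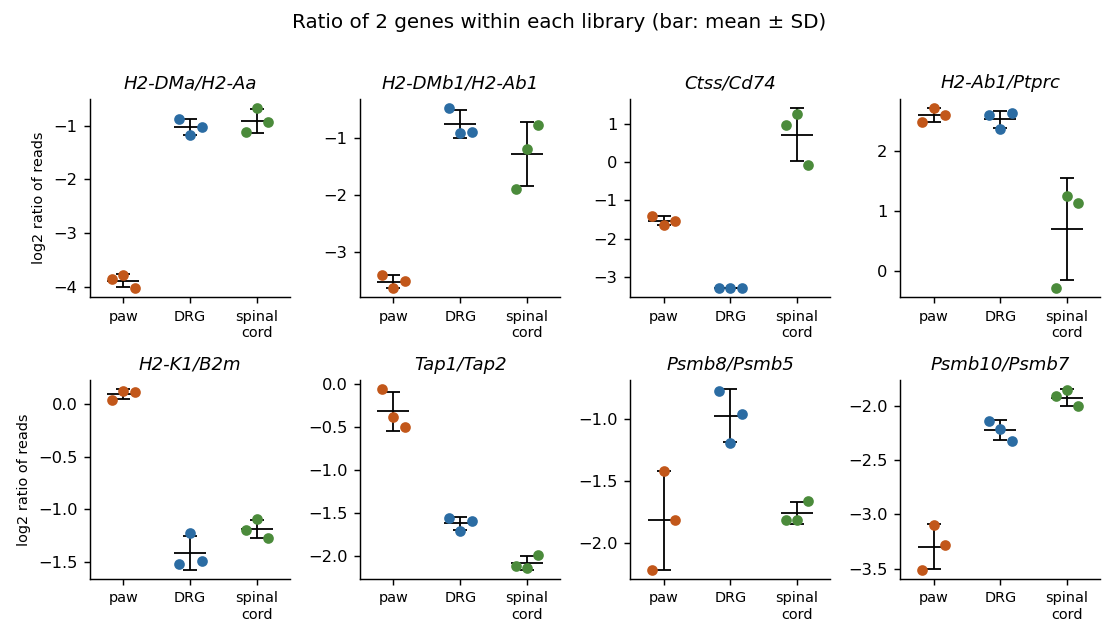
Log2 ratios of the reads of 2 genes within each library (vertical axes), with paw, DRG and spinal cord from left to right, points for replicates 1 to 3 and bars for the mean ± SD. The 2 DM to class II ratios lie between -4.03 and -3.41 in all paw libraries, and H2-K1/B2m lies between 0.05 and 0.13 in paw and below -1 elsewhere.

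Markers of cells that can make class II followed the class II levels in part only: macrophage sums were highest in paw but lower in DRG than in spinal cord. Per length, taking the longest coding transcript of each gene in GENCODE M21, Cd74 stood at 153, 97.8 and 33.6 CPM per kilobase in paw, DRG and spinal cord and H2-Aa at 124, 61.3 and 19.3. Of all genes tested, 39.7% were called higher and 40.8% lower in paw than in DRG, and 29.0% higher and 30.6% lower in DRG than in spinal cord. Of 11 macrophage markers tested, 10 were called higher in paw than in DRG and 1 was not called, with summed levels of 534 to 606 in paw, 181 to 240 in DRG and 285 to 382 in spinal cord, in CPM. In DRG over spinal cord, where the class II genes were higher, 2 of these markers were called higher and 5 lower. The most expressed were Lyz2, at 195.8, 79.2 and 78.6 CPM in paw, DRG and spinal cord, and Csf1r, at 96.0, 34.8 and 111 CPM. The 10 Langerhans and dendritic cell markers summed to 99.2 to 102 CPM in paw, 42.1 to 44.3 in DRG and 42.4 to 47.3 CPM in spinal cord, with 4 called higher and 2 lower in paw than in DRG of 7 tested. Among them Epcam was at 60.1 CPM in paw, 0.109 in DRG and 0.249 CPM in spinal cord, Clec10a at 14.5, 1.44 and 0.801 CPM, and the genes called lower in paw than in DRG were Flt3, at 0.722, 29.0 and 38.4 CPM, and Zbtb46, at 3.34, 8.84 and 3.86 CPM. Epithelial cells also express Epcam, and leaving it out was a choice made after seeing the data. Without Epcam the list summed to 38.0 to 41.9 CPM in paw, 41.96 to 44.2 in DRG and 42.2 to 46.9 CPM in spinal cord. That sum was not higher in paw. However, Flt3 alone made up on average 29.0 CPM of it in DRG and 38.4 CPM in spinal cord, against 0.722 CPM in paw. In paw over spinal cord, 5 of the 7 tested markers of the full list were called higher and 1 lower. The shares over all genes there were 39.9% and 41.7%. Cd207, the defining marker of Langerhans cells, named for that role and outside the rule on list members, was at 12.3 CPM in paw and had 1 read in each DRG library and 0 in spinal cord. Of 8 microglial markers, 6 were called lower and 1, Olfml3, higher in DRG than in spinal cord, and their sums were 144 to 161 CPM in paw, 160 to 177 in DRG and 299 to 311 CPM in spinal cord. How far the makeup of the tissues accounts for the levels was not tested, and in bulk tissue fewer cells of a type and less RNA per cell cannot be told apart. Of 6 leukocyte markers tested, 5 were called higher in paw than in DRG and 1, Coro1a, lower. Coro1a was at 14.1 CPM in paw, 122 in DRG and 48.9 CPM in spinal cord. The 6 markers summed to 106 to 128 CPM in paw, 158 to 188 in DRG and 113 to 188 CPM in spinal cord. The 5 B cell markers summed to 1.42 to 1.53, 1.16 to 3.32 and 0.420 to 15.4 CPM in those tissues. Set against Ptprc alone, the pan-leukocyte gene, H2-Ab1 stood at a log2 ratio of 2.60 ± 0.12 in paw, 2.53 ± 0.14 in DRG and 0.71 ± 0.85 in spinal cord (SD, n = 3 each). Paw over DRG was 0.07 (exact permutation p = 0.6, 3 against 3 libraries), paw over spinal cord 1.90 and DRG over spinal cord 1.83 (both exact permutation p = 0.1, two-sided, the smallest this design allows). The spinal cord values were -0.28, 1.25 and 1.14, the low value being in replicate 1, whose Ptprc was 2.095 times and whose summed B cell markers were 6.20 times the mean of the other spinal cord libraries.

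The tested class II chains, Cd74, H2-DMa and H2-DMb1 were high in spinal cord replicate 3. Over the mean of the other spinal cord libraries it had 3.22 times the Ciita, 3.03 times the H2-DMb1, 2.36 times the H2-Eb1, 2.08 times the Cd74, 2.00 times the H2-Aa, 1.95 times the H2-DMa, 1.80 times the H2-Ab1 and 1.70 times the Nlrc5. Among the class II loading genes Ctss did not share this, at 0.921 times. H2-Ob, at 0.918 CPM against 1.40 and 0.327 CPM, H2-Oa, at 4 reads against 9 and 9, and H2-DMb2, at 6 reads against 10 and 2, were not the highest there. The class I genes were nearer 1, with 1.25 for B2m, 1.15 for H2-K1, 0.965 for H2-D1, 0.968 for Tap1 and 1.00 for Psmb8. Among the marker lists, the same library had 2.499 times the fibroblast and meningeal sum and 1.60 times the Schwann and satellite glial sum, but 0.964 times the macrophage, 1.03 times the microglial, 0.970 times the Langerhans and dendritic cell and 0.727 times the leukocyte sum. Single macrophage markers differed from that sum. Lyz2, the most expressed, was at 133, 32.7 and 70.1 CPM in spinal cord replicates 1 to 3. Emr1, Mrc1, Cd163 and Fcgr1 were highest in replicate 3, with Mrc1 at 7.40 against 4.95 and 4.06 CPM. The rest of the macrophage list was not highest there. The part of these markers in the class II levels was not tested. Without this library the class II differences from spinal cord were larger: in paw over spinal cord H2-Aa was at 3.13, H2-Ab1 at 3.25, H2-Eb1 at 2.83 and Cd74 at 2.67, and in DRG over spinal cord at 2.09, 2.14, 2.27 and 1.99 on the log2 scale.

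**Figure D4:**
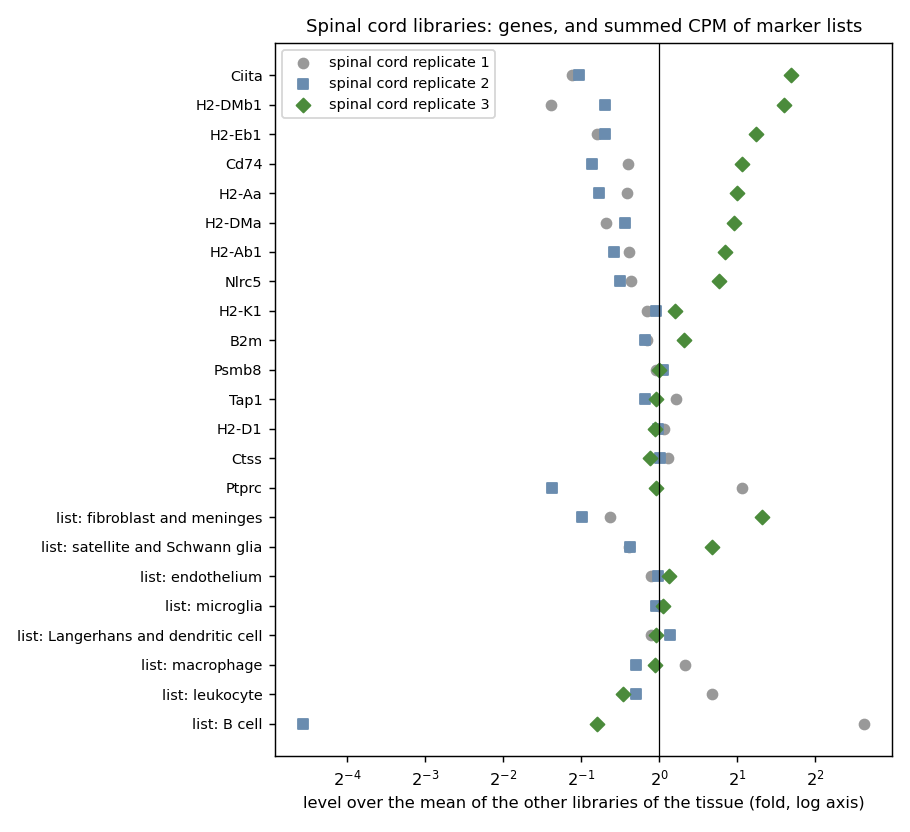
Level of each spinal cord library over the mean of the other spinal cord libraries (horizontal axis, fold on a log2-spaced axis) for 15 genes and for the summed CPM of 8 marker lists (rows). Replicate 3 lies at 1.70 to 3.22 for Ciita, the class II genes and Nlrc5 and at 0.921 to 1.25 for Ctss, Tap1, Psmb8, H2-D1, H2-K1 and B2m.

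The transactivators were lowest in spinal cord. Ciita, the class II transactivator, had 46, 62 and 74 reads in paw, 66, 27 and 59 in DRG and 8, 9 and 23 in spinal cord, which is 3.65 ± 0.82, 2.39 ± 0.94 and 0.713 ± 0.526 CPM (SD, n = 3 each). It was called higher in paw over spinal cord, at 2.39 ± 0.46 (adjusted p = 0.000531), and in DRG over spinal cord, at 1.78 ± 0.47 (adjusted p = 0.0067), with values of 3.17 and 2.54 without spinal cord replicate 3. DRG and spinal cord overlapped, since DRG replicate 2 was at 1.30 CPM and spinal cord replicate 3 at 1.32 CPM. Paw over DRG, at 0.61 ± 0.40, was not called (adjusted p = 0.181). Nlrc5, the class I transactivator, had 13.2, 14.3 and 12.1 CPM in paw, 5.09, 3.28 and 7.77 CPM in DRG, and 1.501, 1.40 and 2.47 CPM in spinal cord. The tissues did not overlap, and DRG spread the most. Nlrc5 was 1.29 ± 0.28 higher in paw over DRG (adjusted p = 0.00113), 2.89 ± 0.31 in paw over spinal cord (adjusted p = 4.31e-06) and 1.60 ± 0.32 in DRG over spinal cord (adjusted p = 0.00112). Without spinal cord replicate 3 its differences from spinal cord were 3.22 for paw and 1.896 for DRG.

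The classical class I heavy chains H2-K1 and H2-D1, which present peptides to CD8 T cells, were highest in paw, lower in DRG and lowest in spinal cord, with little spread. Their sum was 406 ± 1.27 CPM in paw, 278 ± 7.00 in DRG and 161 ± 3.18 CPM in spinal cord (SD, n = 3 each). H2-K1 had 178, 184 and 186 CPM in paw, 105, 113 and 102 CPM in DRG, and 59.5, 63.0 and 70.2 CPM in spinal cord. Levels of H2-D1 were 229, 221 and 221 CPM in paw, 169, 173 and 172 CPM in DRG, and 99.8, 96.2 and 94.6 CPM in spinal cord. No tissue overlapped another for either gene. Paw over DRG was 0.77 ± 0.09 for H2-K1 (adjusted p = 6.03e-06) and 0.38 ± 0.07 for H2-D1 (adjusted p = 0.000495). Paw over spinal cord was 1.51 ± 0.09 for H2-K1 (adjusted p = 1.69e-08) and 1.21 ± 0.08 for H2-D1 (adjusted p = 2.72e-08), and DRG over spinal cord 0.73 ± 0.09 and 0.82 ± 0.07 (adjusted p = 2.53e-05 and 2.49e-06). H2-K1 shares 8.79% and H2-D1 14.3% of its 50-base windows with transcripts of other genes, so reads from those windows do not point to 1 gene.

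B2m, the light chain of every class I molecule, peaked in DRG instead. It had 173, 168 and 170.9 CPM in paw, 302, 265 and 287 CPM in DRG, and 137, 135 and 169.7 CPM in spinal cord. All DRG libraries lay above the rest, and paw overlapped with spinal cord replicate 3. B2m was -0.74 ± 0.10 in paw over DRG (adjusted p = 4.14e-05) and 0.95 ± 0.10 in DRG over spinal cord (adjusted p = 1.21e-05). Paw over spinal cord was 0.22 ± 0.10 (adjusted p = 0.0755) and, without spinal cord replicate 3, 0.37 (adjusted p = 0.00364). Per length B2m was the highest of the module in each tissue, at 198, 331 and 171 CPM per kilobase in paw, DRG and spinal cord, beside 113, 65.9 and 39.7 for H2-K1 and 106, 81.5 and 46.1 for H2-D1. The log2 ratio H2-K1/B2m was 0.10 ± 0.05 in paw, -1.42 ± 0.16 in DRG and -1.19 ± 0.09 in spinal cord (SD, n = 3 each). Paw over DRG was 1.51 and paw over spinal cord 1.29 (both exact permutation p = 0.1), and DRG over spinal cord -0.23 (exact permutation p = 0.2, 3 against 3 libraries).

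Peptide loading genes split between tissues. Tap1 and Tap2 form the pump that brings peptides into the endoplasmic reticulum, and Tapbp encodes tapasin, which bridges the pump to empty class I molecules. Tap1 had 25.0, 22.2 and 20.6 CPM in paw, 12.7, 12.6 and 12.2 CPM in DRG, and 8.35, 6.95 and 7.40 CPM in spinal cord, without overlap. It was 0.85 ± 0.12 in paw over DRG (adjusted p = 3.47e-05), 1.58 ± 0.12 in paw over spinal cord (adjusted p = 1.91e-07) and 0.73 ± 0.12 in DRG over spinal cord (adjusted p = 0.000329). Tap2, its partner, had 26.2, 28.9 and 29.3 CPM in paw, 37.7, 41.4 and 36.9 CPM in DRG, and 36.4, 30.7 and 29.6 CPM in spinal cord, so that DRG was highest. It was -0.46 ± 0.11 in paw over DRG (adjusted p = 0.00175) and was not called in paw over spinal cord (-0.19 ± 0.11, adjusted p = 0.109). Tap2 in DRG over spinal cord, at 0.26 ± 0.10, was barely called (adjusted p = 0.0474). Leaving out any of DRG replicates 1, 2 and 3, spinal cord replicates 2 and 3 or paw replicates 2 and 3 ended the call, at adjusted p-values of 0.0559 to 0.121. The log2 ratio Tap1/Tap2 was -0.32 ± 0.23 in paw, -1.62 ± 0.08 in DRG and -2.08 ± 0.08 in spinal cord (SD, n = 3 each), without overlap; it was chosen after its values were seen and was not tested. Tapbp had 90.7, 86.2 and 91.6 CPM in paw, 113, 121 and 105 CPM in DRG, and 67.1, 64.8 and 64.3 CPM in spinal cord. No tissue overlapped another, and Tapbp was -0.33 ± 0.08 in paw over DRG (adjusted p = 0.00303), 0.45 ± 0.08 in paw over spinal cord (adjusted p = 0.000339) and 0.78 ± 0.08 in DRG over spinal cord (adjusted p = 9.26e-06).

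The catalytic subunits of the immunoproteasome, Psmb8, Psmb9 and Psmb10, replace Psmb5, Psmb6 and Psmb7 of the standard particle and favour peptides that fit class I. None of them was called higher in paw than in DRG, where 39.7% of all genes tested were. Together they summed to 27.0 ± 4.47 CPM in paw, 47.4 ± 1.77 in DRG and 37.7 ± 6.07 CPM in spinal cord (SD, n = 3 each). Psmb8 had 6.58, 10.31 and 9.89 CPM in paw, 14.3, 13.6 and 14.7 CPM in DRG, and 5.95, 6.20 and 6.08 CPM in spinal cord, with no overlap between tissues. It was -0.67 ± 0.16 in paw over DRG (adjusted p = 0.00244), 0.55 ± 0.17 in paw over spinal cord (adjusted p = 0.00965) and 1.22 ± 0.16 in DRG over spinal cord (adjusted p = 6.25e-05). Psmb10 had 12.3, 16.2 and 15.7 CPM in paw, 29.1, 31.3 and 27.6 CPM in DRG, and 29.7, 35.5 and 23.99 CPM in spinal cord. Paw was lowest, at -0.99 ± 0.15 over DRG (adjusted p = 8.44e-05) and -1.01 ± 0.15 over spinal cord (adjusted p = 6.95e-05), whereas DRG and spinal cord overlapped, at -0.02 ± 0.15 (adjusted p = 0.922). Psmb9 was lower in reads, with 50, 59 and 57 in paw, 86, 91 and 69 in DRG and 44, 45 and 27 in spinal cord. Psmb9 was called higher in paw over spinal cord, at 0.76 ± 0.21 (adjusted p = 0.00558), and in DRG over spinal cord, at 0.99 ± 0.21 (adjusted p = 0.00155), and stood at -0.22 ± 0.20 in paw over DRG (adjusted p = 0.32). Psmb9 and Tap1 lie head to head on chromosome 17, on opposite strands with 226 bases between their annotated starts on GRCm38.p6, and Tap1 was called higher in paw than in DRG while Psmb9 was not called.

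Against the subunit it replaces, each immunoproteasome gene was also set within libraries. The log2 ratio Psmb8/Psmb5 was -1.82 ± 0.39 in paw, -0.98 ± 0.21 in DRG and -1.76 ± 0.09 in spinal cord. Psmb9/Psmb6 was -5.55 ± 0.13 in paw, -5.01 ± 0.15 in DRG and -5.60 ± 0.17 in spinal cord, and Psmb10/Psmb7 was -3.30 ± 0.21 in paw, -2.23 ± 0.09 in DRG and -1.93 ± 0.08 in spinal cord (SD, n = 3 each). Paw lay below DRG without overlap in all 3 ratios, by -0.84, -0.53 and -1.07 (each exact permutation p = 0.1, the smallest possible). DRG over spinal cord was 0.78 for Psmb8/Psmb5, 0.59 for Psmb9/Psmb6 and -0.30 for Psmb10/Psmb7 (each exact permutation p = 0.1). Paw over spinal cord was -1.37 for Psmb10/Psmb7 (exact permutation p = 0.1), while Psmb8/Psmb5 at -0.06 and Psmb9/Psmb6 at 0.05 overlapped (exact permutation p = 0.7 and 0.5). In all, 5 ratios were tested in 3 comparisons each, and a design of 3 against 3 libraries cannot reach 0.05.

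Of the 26 non-classical class I heavy chains, known as class Ib and mostly of restricted expression, 10 passed the filter. Paw against DRG had 3 called higher and 3 lower, paw against spinal cord 3 and 4, and DRG against spinal cord 1 and 4. Of all genes tested, 39.7% were called higher and 40.8% lower in paw against DRG. The shares were 39.9% and 41.7% in paw against spinal cord, and 29.0% and 30.6% in DRG against spinal cord. H2-T23 and H2-Q10 were the most abundant of the class Ib genes in paw. H2-T23, the Qa-1 heavy chain that is a ligand of the CD94/NKG2A receptor of natural killer cells, had 36.6, 33.6 and 32.5 CPM in paw, 10.7, 9.94 and 8.27 CPM in DRG, and 9.91, 10.96 and 10.96 CPM in spinal cord. Every paw library was above every other, at 1.83 ± 0.12 over DRG (adjusted p = 4.46e-08) and 1.69 ± 0.12 over spinal cord (adjusted p = 8.30e-08), and DRG and spinal cord overlapped. H2-Q10, a secreted class Ib chain known chiefly from liver, had 17.2, 15.2 and 11.3 CPM in paw, 0.223, 0.724 and 0.446 CPM in DRG, and 1.35, 0.513 and 0.804 CPM in spinal cord. Paw was 4.96 ± 0.37 over DRG (adjusted p = 1.69e-07) and 4.03 ± 0.34 over spinal cord (adjusted p = 4.98e-07). DRG over spinal cord was -0.94 ± 0.46 (adjusted p = 0.103), and without DRG replicate 2 it was -1.40 (adjusted p = 0.0415) and without spinal cord replicate 2 it was -1.24 (adjusted p = 0.0407). H2-Q10 shares 8.03% of its windows with other transcripts, and H2-T23 shares 28.8%.

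Classical class I promoters carry an enhancer with a kappa B element, besides X and Y boxes. The 250 bases upstream of the starts of H2-K1 (chr17:34000348-34000597, minus strand), H2-D1 (chr17:35262844-35263093, plus strand) and H2-Q10 (chr17:35469839-35470088, plus strand) are shown from RefSeq on GRCm38.p6. All of these related genes were highest in paw, and they are shown because they differed in how far paw stood above the other tissues. Capitals mark matches on either strand to GGGATTC, a core of the kappa B element, to ACNGATG and to CCAAT; none overlaps another.
H2-K1: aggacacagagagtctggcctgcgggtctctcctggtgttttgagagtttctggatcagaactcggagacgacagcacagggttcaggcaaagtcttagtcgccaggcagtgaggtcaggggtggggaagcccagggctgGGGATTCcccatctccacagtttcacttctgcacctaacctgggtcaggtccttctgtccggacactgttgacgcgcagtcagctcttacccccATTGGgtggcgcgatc
H2-D1: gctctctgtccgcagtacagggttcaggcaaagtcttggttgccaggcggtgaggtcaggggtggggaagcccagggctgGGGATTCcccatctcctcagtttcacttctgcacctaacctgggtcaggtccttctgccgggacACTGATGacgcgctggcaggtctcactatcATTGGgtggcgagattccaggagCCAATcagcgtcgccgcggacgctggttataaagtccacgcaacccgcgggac
H2-Q10: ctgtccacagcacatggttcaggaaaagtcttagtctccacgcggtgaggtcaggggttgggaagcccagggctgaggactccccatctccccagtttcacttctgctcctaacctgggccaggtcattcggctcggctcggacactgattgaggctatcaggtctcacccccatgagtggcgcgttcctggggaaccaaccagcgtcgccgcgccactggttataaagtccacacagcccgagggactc
H2-K1 held GGGATTC at 110 and a reversed CCAAT at 16 bases before the start. H2-D1 held GGGATTC at 170, ACNGATG at 106 and CCAAT at 76 bases, reversed, and at 53 bases. H2-Q10 held none of these letters, although its aligned bases were 88.5% identical to those of H2-K1 and 87.1% identical to those of H2-D1, beside 87.9% between H2-K1 and H2-D1. GGGATTC was found in 2.54% of the 32851 promoters and in 5 of the 39 genes of the module with an entry, and a match or its lack is a description of the letters only.

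**Figure D5:**
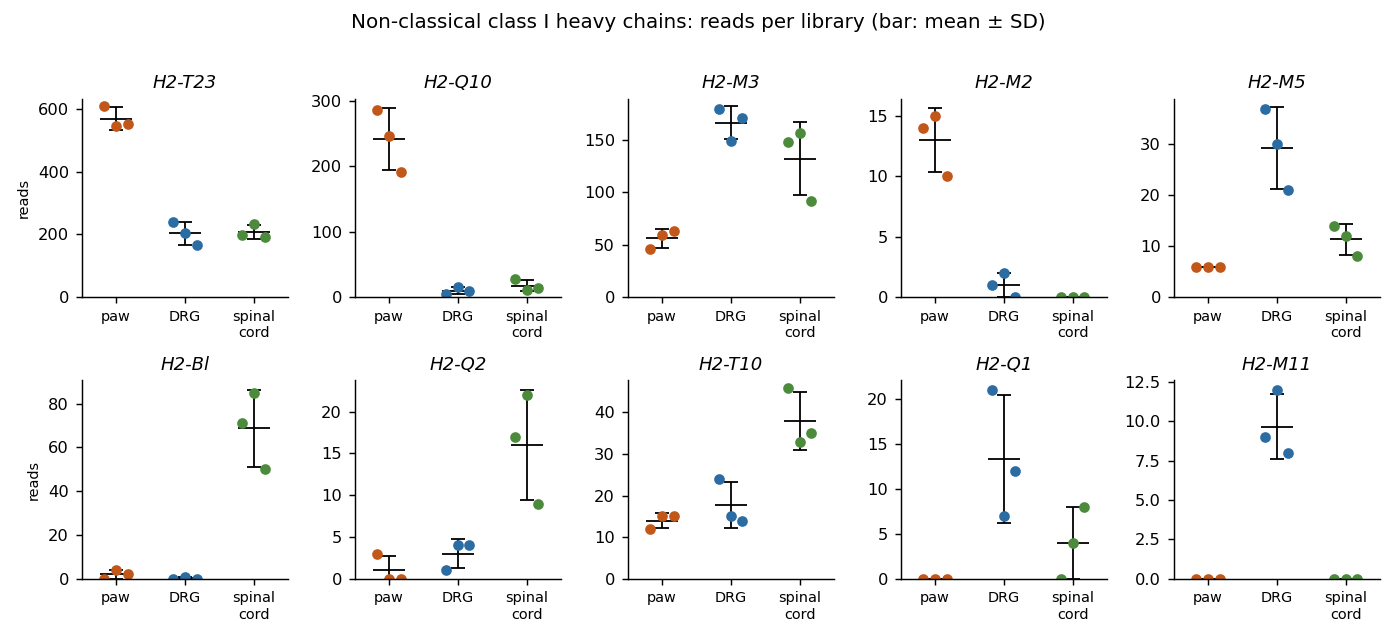
Reads per library (linear axes from 0) of 10 class Ib heavy chains, with paw, DRG and spinal cord from left to right, points for replicates 1 to 3 and bars for the mean ± SD, cut at 0. H2-T23, H2-Q10 and H2-M2 are highest in paw, H2-M11 has reads in DRG alone, with 9, 12 and 8, and H2-Bl, H2-Q2 and H2-T10 are highest in spinal cord.

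Other class Ib genes had their highest level in DRG or spinal cord. H2-M3, which presents peptides with a formylated methionine, had 2.75, 3.64 and 3.71 CPM in paw, 8.04, 7.19 and 8.47 CPM in DRG, and 7.40, 7.32 and 5.28 CPM in spinal cord. It was -1.23 ± 0.19 in paw over DRG (adjusted p = 8.31e-05) and -0.99 ± 0.19 in paw over spinal cord (adjusted p = 0.000476), and DRG and spinal cord overlapped (0.24 ± 0.18, adjusted p = 0.264). H2-M5 had 6, 6 and 6 reads in paw, 37, 30 and 21 in DRG and 14, 12 and 8 in spinal cord, and DRG was called above both paw (-1.92 ± 0.33 in paw over DRG, adjusted p = 0.000223) and spinal cord (1.26 ± 0.30, adjusted p = 0.00366). H2-Bl had 0, 4 and 2 reads in paw, 0, 1 and 0 in DRG and 71, 85 and 50 in spinal cord. It was called lower in paw over spinal cord, at -4.78 ± 0.52 (adjusted p = 4.29e-06), and in DRG over spinal cord (adjusted p = 2.55e-06), where 1 read stood against 206, a ratio of spinal cord over DRG of 222 with a 95% counting interval of 39.3 to 8793. Without paw replicate 2 the H2-Bl value in paw over spinal cord was -5.70, and without DRG replicate 2, which holds the DRG read, the fitted value in DRG over spinal cord was -9.03 in place of -7.28. H2-Bl in paw over DRG was not called (adjusted p = 0.0731), but was called without DRG replicate 2 (adjusted p = 0.0427) and without paw replicate 1 (adjusted p = 0.0155). H2-Q2 had 3, 0 and 0 reads in paw, 1, 4 and 4 in DRG and 17, 22 and 9 in spinal cord. Spinal cord was 13.6 times paw for H2-Q2, with a counting interval of 4.37 to 68.1, and DRG over spinal cord was -2.45 ± 0.63 (adjusted p = 0.00565). The fitted H2-Q2 value in paw over spinal cord was -3.61 ± 0.79 (adjusted p = 0.00117), and without paw replicate 1, which holds all 3 paw reads, -6.98. Without that library H2-Q2 was also called in paw over DRG (-4.54, adjusted p = 0.0329), where it was not called with it (-1.16, adjusted p = 0.323).

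H2-T10 and H2-T22 encode ligands of some gamma delta T cell receptors. H2-T10 had 12, 15 and 15 reads in paw, 24, 15 and 14 in DRG and 46, 33 and 35 in spinal cord, and was called lower in paw over spinal cord (-1.20 ± 0.29, adjusted p = 0.00236) and in DRG over spinal cord (-1.22 ± 0.28, adjusted p = 0.00295). H2-T22 had 12, 33 and 32 reads in paw, DRG and spinal cord and was not tested, and the 2 genes share 43.0% and 44.7% of their windows with other transcripts, mostly with each other. H2-T24 had 22, 34 and 40 reads in paw, 32, 23 and 29 in DRG and 61, 35 and 55 in spinal cord. Its call in DRG over spinal cord, -0.97 ± 0.32 (adjusted p = 0.02), was lost without DRG replicate 2 (-0.85), without spinal cord replicate 1 (-0.83) and without spinal cord replicate 3 (-0.80), with adjusted p-values of 0.0684, 0.0694 and 0.0683. In paw over spinal cord H2-T24 was not called (-0.43, adjusted p = 0.215), but was called without spinal cord replicate 2 (-0.67, adjusted p = 0.0475). Within the Qa-2 family, H2-Q6 had 13, 8 and 10 reads in paw, 30, 33 and 33 in DRG and 24, 13 and 20 in spinal cord and was called lower in paw than in DRG (-1.28 ± 0.33, adjusted p = 0.00389). Its paw over spinal cord value of -0.65 ± 0.35 was not called (adjusted p = 0.108), but was called without spinal cord replicate 2 (-0.89, adjusted p = 0.0244). H2-Q8 had 15, 32 and 18 reads and H2-Q7 had none, with 34.9% of the H2-Q7 windows and 32.0% of those of H2-Q6 found in other genes; whether the count of 0 for H2-Q7 comes from reads that could not be placed was not tested.

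Some of the remaining class Ib genes had reads in 1 tissue only or nearly so. H2-M2 had 14, 15 and 10 reads in paw, 1, 2 and 0 in DRG and 0 in spinal cord, so that paw was 16.5 times DRG, with a counting interval of 5.24 to 83.4, and at least 15.3-fold higher than spinal cord, taking 3 reads over the group as the floor. Both differences were called (adjusted p = 0.000347 and 9.87e-05), and without DRG replicate 2 the fitted H2-M2 value in paw over DRG was 4.73 in place of 3.87. H2-M11 and H2-M10.2 belong to the M10 group of class Ib genes, known in mice from sensory neurons of the vomeronasal organ. H2-M11 had 9, 12 and 8 reads in DRG and 0 in every paw and spinal cord library, which is at least 7.62-fold lower in paw and, for DRG, at least 8.99-fold higher than in spinal cord. H2-M10.2 had 2, 9 and 2 reads in DRG and 0 elsewhere, at least 3.42-fold lower in paw than in DRG and, in DRG, at least 4.03-fold higher than in spinal cord. DRG replicate 2 holds 9 of its 13 reads, and without that library the H2-M10.2 bounds were 1.56 and 1.84. H2-Q1 had 0 reads in paw, 21, 7 and 12 in DRG and 0, 4 and 8 in spinal cord, so that paw was at least 10.51-fold lower than DRG and at least 3.39-fold lower than spinal cord. Without spinal cord replicate 3 the H2-Q1 bound against spinal cord was 1.61, and without replicate 1 it was 5.14. H2-M9 had 3, 4 and 5 reads in paw, 0, 3 and 0 in DRG and 0 in spinal cord, H2-M1 had 3, 4 and 0 reads in paw, DRG and spinal cord, and H2-T3, the thymus leukaemia antigen, had 0, 1 and 3. Apart from H2-M2, none of the genes in this paragraph passed the low-count filter, and the bounds cover counting error only.

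The remaining members were not counted in the roles above. Cd1d1, which presents lipids to natural killer T cells, varied little, with 4.37, 3.95 and 3.53 CPM in paw, 3.98, 4.30 and 4.31 CPM in DRG, and 5.60, 5.32 and 4.65 CPM in spinal cord. Its call in paw over spinal cord, -0.39 ± 0.16 (adjusted p = 0.0423), was lost under most alternatives, including leaving out DRG replicate 1, 2 or 3, paw replicate 2 or 3, or spinal cord replicate 1 or 2, with values of -0.40 to -0.32 and adjusted p-values of 0.0538 to 0.149. H2-Gs10, a RefSeq synonym of the class Ib gene H2-Q4 that the class Ib counts above leave out, had 10.955, 12.8 and 11.2 CPM in paw, 17.1, 15.8 and 15.7 CPM in DRG, and 7.90, 7.51 and 10.22 CPM in spinal cord. It was -0.47 ± 0.14 in paw over DRG (adjusted p = 0.00779), 0.45 ± 0.14 in paw over spinal cord (adjusted p = 0.0113) and 0.93 ± 0.14 in DRG over spinal cord (adjusted p = 0.000149), and 24.3% of its windows occur in other genes. H2-K2, a class I pseudogene, had 1.497, 1.67 and 2.83 CPM in paw, 5.94, 4.78 and 6.09 CPM in DRG, and 2.95, 4.20 and 3.67 CPM in spinal cord. It was -1.48 ± 0.26 in paw over DRG (adjusted p = 0.000207) and -0.85 ± 0.26 in paw over spinal cord (adjusted p = 0.0103). The H2-K2 difference in DRG over spinal cord, 0.63 ± 0.24 (adjusted p = 0.0381), was not called without DRG replicate 1 or 3 or spinal cord replicate 1 or 3, with values of 0.51 to 0.65.

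Carrying the H2- prefix for their position only, H2-Ke2 encodes a prefoldin subunit and H2-Ke6 a hydroxysteroid dehydrogenase. H2-Ke2 had 28.8, 32.8 and 34.8 CPM in paw, 29.2, 33.2 and 32.0 CPM in DRG, and 39.1, 42.3 and 32.4 CPM in spinal cord. It was called in no comparison, with -0.24 ± 0.12 in paw over spinal cord and -0.27 ± 0.12 in DRG over spinal cord (adjusted p = 0.0807 and 0.069). Without spinal cord replicate 3 these were -0.31 and -0.36 and were called (adjusted p = 0.0222 and 0.0133). The second was also called without paw replicate 1 (-0.27, adjusted p = 0.0497). H2-Ke6 had 31.7, 36.2 and 31.5 CPM in paw, 20.9, 21.8 and 23.025 CPM in DRG, and 26.5, 27.7 and 27.5 CPM in spinal cord. No tissue overlapped another, at 0.60 ± 0.09 in paw over DRG (adjusted p = 9.55e-05), 0.28 ± 0.09 in paw over spinal cord (adjusted p = 0.0143; 0.24 and adjusted p = 0.0544 without paw replicate 2) and -0.31 ± 0.09 in DRG over spinal cord (adjusted p = 0.0128; -0.28 and adjusted p = 0.0514 without DRG replicate 1). A share of 62.9% of the H2-Ke6 windows lies in a transcript annotated to Gm20427, so its counts are uncertain.

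Genes of the same pathways outside the module moved in both directions. Of 11 genes of the interferon gamma pathway tested, paw against DRG had 3 called higher and 7 lower, paw against spinal cord 4 and 4, and DRG against spinal cord 7 and 1. Shares called higher and lower over all genes were 39.7% and 40.8%, 39.9% and 41.7%, and 29.0% and 30.6% in these comparisons. The kinase gene Jak1 was at 271 CPM in paw, 462 in DRG and 169.7 CPM in spinal cord. The transcription factor gene Stat2 was lowest in paw, at 23.2 CPM in paw, 91.0 in DRG and 33.8 CPM in spinal cord. The genes called higher in paw than in DRG were the receptor gene Ifngr1, at 64.1, 47.0 and 32.1 CPM, the kinase gene Jak2, at 65.0, 34.2 and 40.6 CPM, and the inhibitor gene Socs1, at 2.48, 1.03 and 0.817 CPM in paw, DRG and spinal cord. The cytokine gene Ifng, named for its role, had 0 reads in paw and 1 read in each of the other tissues and was not tested. Of 7 genes for factors that bind class II promoters, 4 were called higher and 2 lower in paw than in DRG and 1 higher and 5 lower in DRG than in spinal cord. Rfx5, an X box factor named here after its values were seen, was at 17.5 CPM in paw, 8.53 in DRG and 46.8 CPM in spinal cord, where the class II chains were lowest.

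Among 12 lysosomal genes of class II processing, paw against DRG had 6 called higher and 5 lower, paw against spinal cord 5 and 4, and DRG against spinal cord 7 and 4. Beside these and the counts below, the shares over all genes were 39.7% higher and 40.8% lower in paw against DRG. They were 39.9% and 41.7% in paw against spinal cord and 29.0% and 30.6% in DRG against spinal cord. Ctsb, a lysosomal protease, was at 385 CPM in paw, 1773 in DRG and 997 CPM in spinal cord, with DRG highest where Ctss was lowest. Ctsd, another protease, was at 1046, 1092 and 558 CPM and the membrane protein gene Lamp1 at 519, 671 and 708 CPM in paw, DRG and spinal cord. March1, a ligase that removes class II from the cell surface, was at 3.35, 1.83 and 14.6 CPM in paw, DRG and spinal cord. Of 14 subunits of the standard proteasome, 7 were called higher in paw than in DRG and 7 were not called, whereas of the 3 immunoproteasome genes 2 were called lower there; the difference between these lists was not tested. Psme1, a subunit of the interferon-inducible proteasome activator, was at 48.6 CPM in paw, 20.5 in DRG and 20.6 CPM in spinal cord. Of 9 class I folding and trimming genes, paw against DRG had 3 called higher and 3 lower, paw against spinal cord 7 and 2, and DRG against spinal cord had 5 called higher.

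Costimulatory and checkpoint genes, which set the T cell response to a presented peptide, were called higher in paw than in DRG for 6 of 7 tested and lower for 1. Paw against spinal cord had 6 called higher and 0 lower, and DRG against spinal cord 1 higher and 4 lower. The costimulatory ligand Icosl was at 22.1, 5.82 and 17.2 CPM in paw, DRG and spinal cord, and the adhesion ligand Icam1 at 18.3, 3.38 and 5.23 CPM. The checkpoint ligand Cd274, the gene called lower in paw than in DRG, was at 8.76, 14.4 and 7.67 CPM. Among 7 tested genes for natural killer receptors and class I-like proteins, 5 were called higher in paw against DRG, 6 in paw against spinal cord and 3 in DRG against spinal cord, and the others were not called. Mr1, which presents vitamin B metabolites to mucosal-associated T cells, was at 27.3 CPM in paw, 12.0 in DRG and 10.08 CPM in spinal cord.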

How the data were processed

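RNA was sequenced from 3 paw, 3 DRG and 3 spinal cord libraries, grouped by their labels, with 500 ng of RNA each, a strand-marking kit and 50-base single reads, per the labels' protocols. The authors deposited raw read counts per gene symbol, made with bcl2fastq, TopHat2 and HTSeq on mm9, per the submitters' processing notes; tool versions, gene models and strand setting: not given in the sources used here. Tables held 15537545 to 23229724 reads in genes. The summary rows below the genes, 42.9% to 59.3% of each table, were left out; reads with several alignments made up 31.9% to 47.6%, the most in paw; how many of them fall in related H2 genes was not measured. No deposited column came from another series (0 columns).

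Counts were fitted with edgeR 4.0.16 in R 4.3.3 (filterByExpr, TMM factors, glmQLFit with robust estimation, glmQLFTest) over all 9 libraries, with 6 residual degrees of freedom, and p-values were adjusted by Benjamini-Hochberg over 16091 genes; a gene was called under 0.05. The fit was tested on simulated data. Within-library log2 ratios had 0.5 read added to each gene and were compared by two-sided exact permutation, whose smallest p is 0.1. Folds against tissues at 0 reads used a floor of 3 reads over the group (3 reads are 0.129 to 0.193 CPM in a library), and 95% exact intervals cover counting error only. Alternatives were DESeq2 1.42.0 size factors and Wald test, upper quartile factors, limma-voom (limma 3.58.1), 2 other filters, a replicate block, fits of 2 tissues, other added reads and leaving libraries out.

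Values per library are given for tested members of at least 5 CPM in a tissue. Context lists are given as counts, and the genes named from them are among the 3 most expressed or were called against the majority. Exceptions are Cd207, Rfx5, Ifng and Ptprc, and Emr1, Mrc1, Cd163 and Fcgr1, which were named after their values were seen. Members and lists were chosen with earlier results of these data known. Promoters came from RefSeq on GRCm38.p6, and shared 50-base windows were counted over GENCODE M21 transcripts. Libraries were treated as unpaired, since the labels do not say whether replicate numbers mark the same mouse across tissues.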

Additional observations from a re-analysis of the deposited data

How the results depend on the processing

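Over at most 18 alternatives, 67 of the 75 called differences among 105 member comparisons kept their call and direction wherever they were tested. Among these, H2-Q2 was tested under 15 alternatives in paw over spinal cord and 16 in DRG over spinal cord. Another 8 lost the call under at least 1 alternative, and none of the 75 changed sign. The 8 were Cd74 and H2-DMb2 in paw over DRG, Cd1d1 and H2-Ke6 in paw over spinal cord, and Tap2, H2-K2, H2-T24 and H2-Ke6 in DRG over spinal cord. Of the comparisons not called, 11 were called under at least 1 alternative and 8 changed sign. Members called ranged, leaving out 1 library at a time, from 23 to 27 in paw over DRG, 23 to 28 in paw over spinal cord and 22 to 26 in DRG over spinal cord, beside 25 in each.

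The sign changes were all in differences not called. In paw over DRG, Cd1d1 was 0.036 with upper quartile factors, and H2-T10 was -0.0028 with no low-count filter and -0.06 without spinal cord replicate 3 and DRG replicate 2. Leaving out 1 library, H2-T10 ranged from -0.10 to 0.24 and H2-Ke2 from -0.032 to 0.092. In paw over spinal cord, H2-DMa was 0.12 without spinal cord replicate 3 and DRG replicate 2, and leaving out 1 library gave ranges for H2-DMa of -0.46 to 0.14, for H2-Ob of -0.59 to 0.35 and for Ctss of -0.033 to 0.093. In DRG over spinal cord, leaving out 1 library gave ranges for H2-DMb2 of -0.36 to 0.66 and for Psmb10 of -0.14 to 0.12, and to -0.20 without spinal cord replicate 3 and DRG replicate 2. Among the ratios, H2-Ab1/Ptprc in paw over DRG ranged from -0.010 to 0.13, and in paw over spinal cord Psmb8/Psmb5 ranged from -0.26 to 0.14 and Psmb9/Psmb6 from -0.020 to 0.15. For these sign changes the cause was not tested.

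The labels do not say whether replicate numbers pair the samples. Deviations of same-numbered paw and DRG libraries correlated at -0.005, -0.026 and -0.130, and those of DRG and spinal cord at -0.111, 0.271 and 0.217. Differently numbered DRG and spinal cord libraries ranged from -0.447 to 0.341, so these correlations cannot decide whether the numbers mark the same mouse. With the replicate block 24 members were called in each comparison against 25 without it, Cd74, Cd1d1 and Tap2 losing 1 call each.

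Depth limits the class Ib genes most: 3 reads over a tissue were the least used as a floor, and genes with fewer reads than the filter requires have no test. The part of reads shared between related genes, and of the mix of cells in each tissue, in these levels was not tested. Bounds with a library left out, and the dendritic cell list without Epcam, were alternatives chosen after seeing the data, and no untreated or control tissue was analysed here.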
